A study of Mus musculus with 24 samples.

Results

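The lacrimal gland (LG) of the E17.5 mouse embryo was compared with that of the adult mouse, using 3 libraries of each. E17.5 is the embryonic day. Of the 63862 genes and loci listed for the tissue libraries, 18650 had a mean of at least 0.5 FPKM (a fragment count set relative to gene length and to library size) over the 6 libraries and were tested. The labels name LG tissue of strain C57BL/6 for both groups, no treatment and no engineered allele. They give no age in weeks for the adults, no sex and no statement on pooling. Nothing says that replicates came from separate animals, so p-values measure the spread between these samples. The series holds 24 samples, most of them cultured LG stem cells, which were not used here. E19.5 glands entered only a check of the fit.

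The LG is an exocrine gland that makes the watery and protein part of tears. It buds from the conjunctival epithelium in response to FGF10 from the surrounding mesenchyme, branches through late gestation, and gains its secretory acini around and after birth. An adult acinar cell is filled with rough endoplasmic reticulum (ER) and secretory granules, and the adult stroma houses plasma cells that supply secretory IgA. In whole glands, more cells of a type and more RNA per cell cannot be told apart.

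A few secretory genes took a large share of the adult reads, which bears on the levels below. Reads recovered from the steps of the FPKM values numbered 6434281 to 8413697 in the adult and 7558403 to 9257023 in the E17.5 libraries. In adult LG 1, 2 and 3 the 10 genes with most reads held 60.4%, 59.6% and 31.3% of all reads, and at E17.5 they held 6.76% to 7.69%. The groups did not overlap, and the exact two-sided permutation test gave p = 0.1, the smallest that 3 against 3 libraries allow. The recovered reads were 2.667, 2.567 and 1.103 times the library size that the deposited values were divided by in the adult libraries and 0.960 to 0.971 times at E17.5. Values of adult LG 1 and 2 are lower where they are expressed per read of its own library.

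**Figure D1:**
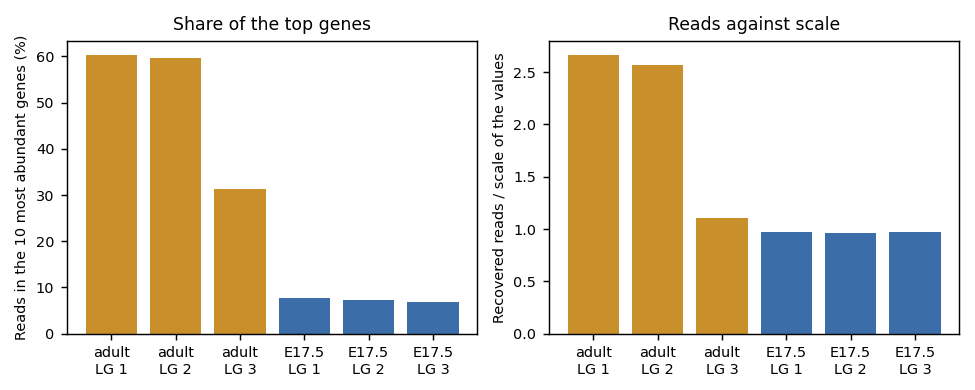
Share of recovered reads in the 10 most abundant genes (left, %) and the ratio of recovered reads to the library size behind the deposited values (right) for each of the 3 adult (ochre) and 3 E17.5 (blue) LG libraries. Adult LG 1 and 2 reach 60.4% and 59.6%, adult LG 3 reaches 31.3%, and no E17.5 library exceeds 7.69%.

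Adult LG 3 stood apart from the other adult libraries. Its correlation with adult LG 1 and 2 over the tested genes was 0.852 and 0.880, against 0.946 between those libraries and at least 0.975 among the E17.5 libraries. It listed milk protein genes, chosen here after their values were seen, at high levels: Wap at 11684 FPKM, Csn1s2a at 5722 FPKM, Glycam1 at 4322 FPKM and Csn2 at 2292 FPKM, where adult LG 1 and 2 had at most 2.50 FPKM for any of them. The X-inactivation RNA Xist was listed at 74.4 FPKM in adult LG 3 and at 0.116 and 0.0704 FPKM in adult LG 1 and 2, while the Y-linked Eif2s3y stood at 0, 1.30 and 1.59 FPKM in the same order. All 3 E17.5 libraries listed both, Xist at 48.6 to 77.2 FPKM and Eif2s3y at 0.154 to 0.399 FPKM. Transcripts of the X and Y chromosomes thus differed within the adult group, and any part of sex in the differences of adult LG 3 cannot be told apart from the rest. Counts of most gene groups without that library are given beside those with it.

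Other libraries listed genes of salivary gland or muscle. Adult LG 2 listed the salivary genes Bpifa2 at 597 FPKM, Smr3a at 275 FPKM and Dcpp2 at 59.5 FPKM, and adult LG 1 and 3 had at most 0.0653 FPKM of any of the 3. Muscle genes varied among the E17.5 libraries, with cardiac actin Actc1 at 9.37, 39.2 and 0.850 FPKM in replicates 1, 2 and 3. The most abundant adult genes were also listed at low values in E17.5 LG 1, such as Mucl2 at 46.0 FPKM against 0.164 and 0 FPKM in replicates 2 and 3. Genes that every cell uses were in part listed at or near 0 throughout, with Gapdh at 0 in all 6 libraries, as was the epithelial marker Epcam. Aqp5 did not exceed 0.568 FPKM and Krt14 did not exceed 0.597 FPKM in any library, so a low value cannot be read as absence of the RNA. For the gland label, genes of LG epithelium were looked up, with mixed results. Barx2 was listed at 55.6 to 256 FPKM, Elf5 at 20.1 to 66.0 FPKM and Pax6 at 3.51 to 11.9 FPKM over the 6 libraries. Krt18 and Cdh1 were also listed in all 6 libraries. Epcam, Aqp5, Krt14 and Mucl2 belonged to the same set. So did Pip, at 484 to 1241 FPKM in adults and at most 0.161 FPKM at E17.5. The part of other tissue in the libraries was not tested.

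Across all genes, 46.3% passed an adjusted p of 0.05, and the calls ran in both directions at similar shares. At E17.5, 4632 genes were higher (24.8% of 18650) and 4012 were lower (21.5%). The E17.5 libraries all lay above the adult libraries for 31.1% of genes and all below for 28.6%. The counts without adult LG 3 were 5745 higher and 5529 lower, of which 4543 and 3902 were among the calls made with it. Scaling each library to its own recovered reads moved the median difference of all genes from 0.00 to 0.54 on the log2 scale and the split to 7248 higher and 1772 lower, so that 80.4% of the calls were higher in place of 53.6%. Leaving the most abundant adult genes (15 in all) out of that total returned 4274 higher and 4103 lower. No gene called in 1 direction was called in the other under any of these settings. In the groups described next, a count of members on the deposited scale is to be read against the 24.8% and 21.5% of all genes. Counts on own recovered reads are to be read against 7248 higher and 1772 lower of 18650. Those without adult LG 3 are to be read against 5745 higher and 5529 lower of 18650. A member with a mean under 0.5 FPKM in either group entered the test through the other group, which set its direction.

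**Figure D2:**
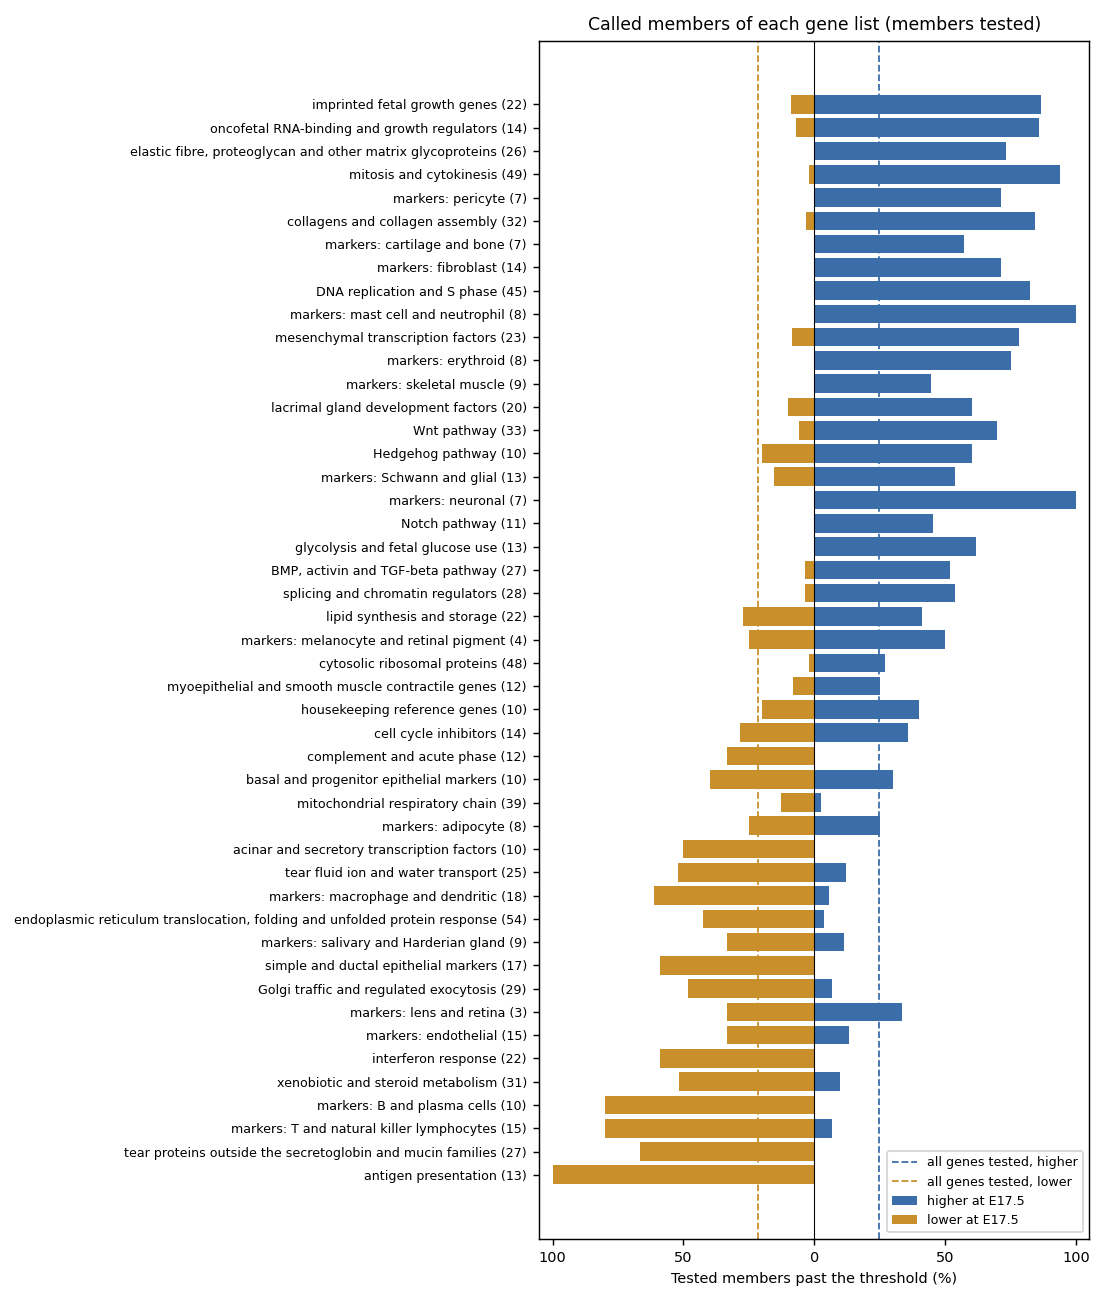
Percent of the tested members of each gene list that were higher (blue, right) or lower (ochre, left) at E17.5 at an adjusted p under 0.05, with the number of members tested in brackets. The dashed lines mark all genes tested, 24.8% higher and 21.5% lower. Lists are ordered by median log2 difference, from antigen presentation (13 of 13 lower) to imprinted genes (19 of 22 higher). All tested members were higher in the mast cell and neutrophil (8 of 8) and neuronal (7 of 7) lists. The neuronal members passed the filter through their E17.5 values alone.

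Tear proteins outside the secretoglobin and mucin families were lower at E17.5. Of 27 tested members, 18 passed in that direction and none in the other, with a median log2 difference of -2.22 (all genes 0.00). Members such as Car6, Wfdc12 and Pigr had E17.5 means under 0.5 FPKM and entered the test through their adult values. The direction of this count was thus set in part by the filter. Without adult LG 3 the count was 20 lower and on own recovered reads 15 lower. Car6, the secreted carbonic anhydrase of tears and saliva (GRCm38 chromosome 4), was listed at 5463, 5639 and 15948 FPKM in adult LG 1, 2 and 3 and at 0.708, 0.0571 and 0.0688 FPKM at E17.5, a log2 difference of -12.63 (SE 0.47, adjusted p = 3.2e-05). Unlike most of the group it was highest in adult LG 3. Pigr, the receptor that carries IgA across the epithelium, was listed at 408, 446 and 158 FPKM in the adult libraries and at no more than 0.0516 FPKM at E17.5 (log2 difference -8.22). Ccl28, a chemokine that draws IgA plasma cells to glands, stood at 294, 202 and 57.9 FPKM in adults and 0.371 to 0.643 FPKM in embryos (log2 difference -6.64). Both were lowest in adult LG 3 within their group and did not overlap with E17.5.

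Some tear proteins did not share this pattern. Lysozyme Lyz2, which macrophages also make, had a log2 difference of -0.93 and did not pass on own recovered reads (0.08). Bpifa2, Dcpp2 and Klk1 did not pass and rested on adult LG 2 alone. The odorant-binding gene Obp1b was listed at 0.520, 0.396 and 16.1 FPKM in adults and at 0 in all E17.5 libraries and did not pass.

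Ranked by size, the falls after the first 5 were led by secreted proteins of the same kind. Ranks 6 to 25 held Car6, Esp18, Esp6 and Esp38 of the exocrine gland-secreted peptide family, the whey acidic protein family member Wfdc12 and Pip. They also held the secretoglobin Scgb2b7, the secretoglobin pseudogene Scgb2b28-ps, the lipase family gene Lipo1 and the cytochrome Cyp2a5. The rest were 7 assembled loci with no symbol and 3 other genes. Esp18 was listed at 19566, 14953 and 3941 FPKM in adults and at 2.45, 1.57 and 3.98 FPKM at E17.5. Esp6 was listed at 74649, 58508 and 9759 FPKM against 18.8, 14.8 and 43.3 FPKM, and unlike Car6 its highest E17.5 value was in replicate 3. Wfdc12 spread widely among the adults, at 8972, 7361 and 317 FPKM. Secretoglobin and Esp genes are near copies of each other within their families, and reads may be split between them by counting.

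The machinery that loads secretory proteins was lower in part, and its direction as a group depended on the scale. Of 54 tested genes of ER translocation, folding and the unfolded protein response, 23 were lower and 2 higher on the deposited scale (median log2 difference -0.80). Without adult LG 3, 42 were lower and 3 higher, and on own recovered reads 19 were lower and 14 higher with a median of -0.03. Sec11c, a signal peptidase subunit, was listed at 638, 531 and 192 FPKM in adults and 14.3, 17.8 and 16.4 FPKM at E17.5 (log2 difference -4.56, SE 0.46, adjusted p = 0.00061). Xbp1, the transcription factor of secretory cells, was listed at 89.8, 65.3 and 58.8 FPKM against 4.55, 3.61 and 2.69 FPKM (-3.96). Its activating enzyme Ern1 differed by -3.30 and the ER protein Sdf2l1 by -3.56. These 4 genes remained lower on own recovered reads, with log2 differences of -3.54, -2.98, -2.31 and -2.54.

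Some ER chaperone and folding genes did not follow them. Hspa5, the main ER Hsp70, was listed at 1250, 1040 and 322 FPKM in adults and at 640, 617 and 520 FPKM at E17.5, so the groups overlapped through adult LG 3 and the gene did not pass. On own recovered reads it was higher at E17.5 (0.68, adjusted p = 0.0295). The disulfide isomerase Pdia4 was higher at E17.5 (log2 difference 1.11), as was Dnajc10 (1.27). They were the only 2 of the 54 tested ER genes called higher on the deposited scale. The ER stress element, CCAAT and CCACG with 9 bases between them, was searched on both strands in the 250 bases before the start of each gene (RefSeq, GRCm38.p6). It was found in 6 of 42 tested ER genes that had a promoter entry (14.3%) and in 0.172% of the 8709 tested genes with an entry. By call it was in 1 of 16 of the lower genes and 5 of 24 of the genes that did not pass. The promoters of Hspa5 (chr2:34771840-34772089, + strand) and of the lower gene Dnajc3 (chr14:118937682-118937931, + strand), which encodes an ER co-chaperone, are shown because the same element stands before a gene that passed and a gene that did not. The element is in capitals, without its spacer.
Hspa5: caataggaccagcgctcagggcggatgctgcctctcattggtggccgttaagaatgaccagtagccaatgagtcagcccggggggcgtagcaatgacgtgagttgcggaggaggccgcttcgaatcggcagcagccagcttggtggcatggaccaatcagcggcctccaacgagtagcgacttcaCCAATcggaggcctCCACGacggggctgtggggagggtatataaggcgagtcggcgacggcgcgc
Dnajc3: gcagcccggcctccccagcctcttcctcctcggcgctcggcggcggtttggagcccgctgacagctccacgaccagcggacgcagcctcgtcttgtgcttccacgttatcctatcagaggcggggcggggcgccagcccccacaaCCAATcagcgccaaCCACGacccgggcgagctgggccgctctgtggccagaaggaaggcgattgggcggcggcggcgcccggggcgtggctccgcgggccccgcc

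Dnajc3 was listed at 641, 524 and 143 FPKM in adults and 54.6, 55.8 and 55.3 FPKM at E17.5 (log2 difference -2.70). A match is a description of these letters and names no bound factor.

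Granule traffic was lower in 14 of 29 tested genes and higher in 2 (median -0.88). The counts without adult LG 3 were 21 and 3, and on own recovered reads 7 and 6 with a median of -0.09. Rab27a, a GTPase of granule docking, was listed at 158, 130 and 42.2 FPKM in adults and 6.23 to 7.70 FPKM at E17.5 (log2 difference -3.60). Rab26, another granule GTPase, differed by -3.06. In the other direction the COPII coat gene Sec23a was listed at 6.94, 9.45 and 10.9 FPKM in adults and at 71.1, 71.0 and 66.6 FPKM at E17.5 (2.82). The COPII coat carries cargo out of the ER, including procollagen.

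Ion and water transport was lower in 13 of 25 tested genes and higher in 3, with 16 members of the list of 41 below the filter. The counts without adult LG 3 were 13 lower and 3 higher, and on own recovered reads 5 lower and 4 higher with a median of -0.13. The water channel Aqp8 was listed at 466, 330 and 91.5 FPKM in adults and at 0.0813, 0 and 0.237 FPKM at E17.5 (log2 difference -7.78). The muscarinic receptor Chrm3, which receives the parasympathetic signal for tear flow, was listed at 24.3, 25.8 and 16.8 FPKM in adults and at most 4.92 FPKM at E17.5 (-2.17). The purinergic receptor P2rx7 (-3.39), the potassium channel Kcnma1 (-2.71) and the sodium channel Scnn1a (-2.28) were lower too. The chloride channel Cftr was higher at E17.5, at 0.828 to 1.40 FPKM against 0.107 to 0.366 FPKM.

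Epithelial genes were described by 4 lists. Of 10 tested transcription factors of acinar and secretory cells 5 were lower and none higher, led by Xbp1 and the nuclear receptor Esrrg (-2.28), and on own recovered reads 3 were lower and 1 higher. The counts without adult LG 3 were 7 lower and 2 higher. Of 17 tested simple and ductal markers, 10 were lower and none higher on the deposited scale, and 3 were lower on own recovered reads. The counts without adult LG 3 were 10 lower and 1 higher. Krt18 was listed at 636, 699 and 938 FPKM in adults and 198, 196 and 294 FPKM at E17.5, a fall that did not pass on own recovered reads (-0.71), while E-cadherin (Cdh1) lay at 121 to 146 FPKM and 132 to 178 FPKM and did not pass. Of 12 tested myoepithelial and smooth muscle genes 3 were higher and 1 lower (5 and 1 without adult LG 3), with calponin Cnn1 at 14.6 to 84.7 FPKM in adults and 1.14 to 1.28 FPKM at E17.5 (-3.65). Actin Acta2 was listed at 524 FPKM in adult LG 3, at no more than 110 FPKM in the other adult libraries and 139, 156 and 296 FPKM at E17.5 and did not pass. Of 10 tested basal and progenitor markers 4 were lower and 3 higher, which became 4 and 4 without adult LG 3 and 1 and 4 on own recovered reads. Krt15 was higher, at 38.3, 46.2 and 66.8 FPKM against 0.938, 4.28 and 9.79 FPKM (log2 difference 3.38), as was Lgr5, a receptor of Wnt-enhancing R-spondins (1.65). Ly6d (-3.21) and Krt17 (-1.78) were lower, the latter not on own recovered reads (-0.80). Perp, a desmosome gene, was lower on the deposited scale (-0.94) and not on own recovered reads (0.08).

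Antigen presentation was lower at E17.5 in every tested member. All 13 passed as lower (5 of the 18 listed were below the filter), with a median of -2.43, and on own recovered reads 9 of 13 did. Without adult LG 3 all 13 passed again. The MHC class II chain H2-Ab1 was listed at 394, 747 and 625 FPKM in adults and 9.03, 6.27 and 6.41 FPKM at E17.5 (log2 difference -6.13, SE 0.29, adjusted p = 5.6e-05). The invariant chain Cd74 was listed at 592, 1206 and 1122 FPKM against 14.0 to 18.2 FPKM (-5.80), and the class II activator Ciita differed by -1.91. Of the class I genes, the light chain B2m stood at 1684, 1864 and 1549 FPKM against 339, 363 and 376 FPKM (-2.24). Adult LG 1 had the lowest H2-Ab1 and Cd74 among the adults.

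Lymphocyte genes were lower with them. Of 15 tested T and natural killer cell markers 12 were lower and 1 higher, and of 10 tested B and plasma cell markers 8 were lower. Without adult LG 3 the lower markers again numbered 12 and 8, and on own recovered reads they numbered 9 and 4. Ighg2b, an immunoglobulin heavy chain, was listed at 20.7, 20.0 and 49.1 FPKM in adults and at most 0.0480 FPKM at E17.5 (log2 difference -4.80). The T cell receptor gene Trbc2 was listed at 7.79, 9.12 and 8.91 FPKM against 1.11, 0.600 and 0.181 FPKM (-2.59). Lck, a lymphocyte kinase, went the other way, at 8.61 to 9.13 FPKM at E17.5 against 2.55 to 5.49 FPKM.

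Myeloid markers did not move together. Of 18 tested macrophage and dendritic genes 11 were lower and 1 higher, and on own recovered reads 4 were lower with a median of 0.08. In the fit without adult LG 3, 9 were lower and 2 higher. The dendritic integrin Itgax was listed at 9.23, 22.8 and 21.6 FPKM in adults and at most 0.234 FPKM at E17.5 (-3.98), whereas the mannose receptor Mrc1 of tissue macrophages was higher at E17.5, at 20.1, 24.3 and 21.9 FPKM against 2.02, 2.97 and 5.02 FPKM (2.47). The signalling adaptors Tyrobp and Fcer1g had log2 differences of 0.00 and 0.08 and did not pass. Interferon response genes were lower in 13 of 22 tested members on the deposited scale, in 14 without adult LG 3 and in 4 on own recovered reads. Of 12 complement and acute phase genes 4 were lower (5 without adult LG 3), among them haptoglobin Hp at 3241, 3013 and 890 FPKM against 3.68 to 4.48 FPKM (-8.69) and C3 at 58.3, 126 and 155 FPKM against 1.96 to 2.48 FPKM (-5.03).

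Mast cell genes were among the largest rises. All 8 tested mast cell and neutrophil markers were higher at E17.5, with another 8 of the list below the filter, and 7 were without adult LG 3. Carboxypeptidase Cpa3 was listed at 692, 732 and 942 FPKM at E17.5 and at 2.19, 4.99 and 9.85 FPKM in adults (log2 difference 7.05, SE 0.44, adjusted p = 0.00014). The chymase Cma1 was listed at 815, 886 and 982 FPKM against 2.70, 9.10 and 15.6 FPKM (6.71). The IgE receptor chain Ms4a2 was listed at 2.04 to 2.99 FPKM and at 0 in every adult library. The neutrophil gene Ngp was also at 0 in the adults, so both entered the test through their E17.5 values. Mcpt4 rose less, from 11.7 to 36.4 FPKM in adults to 158 to 246 FPKM (2.89).

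Drug and steroid metabolism was lower in 16 of 31 tested genes and higher in 3. With adult LG 3 left out the counts were 17 and 5, and on own recovered reads 10 and 5. Cyp2a5 was listed at 927, 1627 and 1682 FPKM in adults and at most 0.0620 FPKM at E17.5 (log2 difference -10.39). Cyp2f2 was listed at 9.38 to 27.2 FPKM at E17.5 and 1700 to 4813 FPKM in adults (-7.61). The alcohol dehydrogenase Adh1, which also acts on retinol, differed by -3.68. The steroid 5-alpha-reductase Srd5a1 was higher at E17.5 (2.61), as was Hsd11b2, which inactivates glucocorticoids (1.57).

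Glycolytic genes were higher at E17.5 and lipid genes were mixed. Of 13 tested glycolytic genes 8 were higher and none lower (all 13 higher without adult LG 3), including enolase Eno1 at 544, 489 and 527 FPKM against 50.2, 79.5 and 99.5 FPKM (2.80) and Ldha (2.02). The lipid list was mixed, with 9 of 22 higher and 6 lower (13 and 6 without adult LG 3). The desaturase Scd1 was lower, at 26.9 to 29.6 FPKM against 482, 392 and 130 FPKM (-3.32). Plin2, a coat protein of lipid droplets, was listed at 274 FPKM in adult LG 3 and at 8.26 and 16.7 FPKM in the other adult libraries and did not pass.

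The ranked rises after the first 5 held genes of several kinds. Ranks 6 to 25 held the glypican Gpc3, the imprinted genes Mest and Slc38a4, the mast cell genes Cpa3 and Cma1, the glial gene Fabp7, the matrix genes Col2a1, Col9a1, Col26a1, Fbn2 and Vcan, the Wnt antagonist Sfrp2, the retinoic acid binding protein Crabp2, Pclaf of replication, and 6 others. Gpc3 was listed at 470, 478 and 428 FPKM at E17.5 and 0.925, 0.938 and 3.46 FPKM in adults (log2 difference 7.49). Fabp7 was listed at 116, 114 and 151 FPKM at E17.5 and at 0 in the adult libraries. The size of the Col9a1 and Crabp2 differences depended on the adult library, since adult LG 3 listed 17.8 and 25.0 FPKM where adult LG 1 and 2 had at most 1.67 FPKM.

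Imprinted genes were higher in 19 of 22 tested members and lower in 2, and the median of 3.24 changed little on own recovered reads (3.34) or without adult LG 3 (3.27). Mest was listed at 249, 235 and 193 FPKM at E17.5 against 0.630, 0.320 and 1.26 FPKM (7.06). The growth restraint gene Grb10 was listed at 216, 210 and 180 FPKM against 2.74, 3.44 and 9.72 FPKM (5.17). Magel2 was at 0 in the adult libraries and at 24.6 to 34.3 FPKM at E17.5. The RNAs of the Dlk1 locus, Meg3 (3.57), Rian (2.91) and Mirg (2.40), were higher with it. Ascl2 (-2.34) and Snrpn (-1.53) were lower, and Ascl2 did not pass on own recovered reads (-1.46).

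A mixed list of oncofetal RNA-binding proteins and growth regulators was higher in 12 of 14 tested members and lower in 1, with the same counts without adult LG 3. The largest differences were in members that bind no RNA, the angiotensin receptor Agtr2 (9.18), the growth factor Ptn (7.51) and the fibrillin Fbn2 (6.31). These are ranks 2, 5 and 16 of the rises in this same comparison, and Fbn2 is also a member of the matrix list. The list was written with earlier results of these data known, so its count is no independent result. Of the RNA-binding members, the Igf2 mRNA-binding proteins Igf2bp2 (log2 difference 4.07) and Igf2bp3 (3.64) rose, and Igf2bp1 stood at 5.28 to 6.63 FPKM at E17.5 and at 0 in adults. The chromatin protein Hmga2 was listed at 12.1, 12.0 and 10.1 FPKM against 0.184, 0.0466 and 0.0968 FPKM (3.48). Agtr2, Fbn2, Igf2bp1 and Hmga2 had adult means under 0.5 FPKM and entered the test through their E17.5 values, which set their direction. Lin28a went the other way at low values, 2.80, 1.97 and 0.263 FPKM in adults and at most 0.0322 FPKM at E17.5.

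Cell division genes were higher at E17.5 almost throughout the tested members. Of 49 mitosis and cytokinesis genes 46 were higher and 1 lower (median 2.51), with 25 of the list below the filter, and of 45 replication genes 37 were higher and none lower (2.11). These became 47 and 38 higher, and 1 of each list lower, without adult LG 3. Cyclin B1 (Ccnb1), which drives entry into mitosis, was listed at 78.9, 77.7 and 94.6 FPKM at E17.5 and at 0.885, 0.748 and 1.18 FPKM in adults (log2 difference 5.45, SE 0.17, adjusted p = 2.9e-05). The kinase Plk1 differed by 4.68, the kinetochore gene Ndc80 by 4.73 and the helicase subunit Mcm3 by 3.85. Mcm3 was listed at 149, 151 and 159 FPKM against 8.84, 11.1 and 9.16 FPKM. The exception that was lower was the tubulin Tubb4b (-0.78), which is not specific to dividing cells and did not pass on own recovered reads (-0.15).

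Promoters of mitotic genes often carry CCAAT boxes and a cell cycle homology region (CHR, TTTGAA or TTCGAA). Both strands of the 250 bases before the start were searched. A CCAAT box was found in 28 of the 41 higher mitosis genes with a promoter entry (68.3%) and in 39.4% of tested genes with an entry, and a CHR in 16 (39.0%) and 15.6%. Both were found in 12 (29.3%) and 5.86%. The promoters of Ccnb1 (chr13:100786487-100786736, - strand), Ccnb2 (chr9:70421555-70421804, - strand) and Ube2c (chr2:164769679-164769928, + strand), genes of mitotic entry and exit, are shown as examples with matches in capitals on either strand.
Ccnb1: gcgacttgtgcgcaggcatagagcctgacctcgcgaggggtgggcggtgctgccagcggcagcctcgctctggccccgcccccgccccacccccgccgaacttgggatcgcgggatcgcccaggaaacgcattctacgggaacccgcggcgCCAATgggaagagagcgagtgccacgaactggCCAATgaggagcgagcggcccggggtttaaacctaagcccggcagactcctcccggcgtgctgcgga
Ccnb2: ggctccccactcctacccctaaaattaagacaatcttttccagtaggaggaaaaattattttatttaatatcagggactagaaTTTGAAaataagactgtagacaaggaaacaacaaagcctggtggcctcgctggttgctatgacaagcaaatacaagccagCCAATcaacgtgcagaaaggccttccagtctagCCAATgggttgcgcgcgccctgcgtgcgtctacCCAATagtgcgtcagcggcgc
Ube2c: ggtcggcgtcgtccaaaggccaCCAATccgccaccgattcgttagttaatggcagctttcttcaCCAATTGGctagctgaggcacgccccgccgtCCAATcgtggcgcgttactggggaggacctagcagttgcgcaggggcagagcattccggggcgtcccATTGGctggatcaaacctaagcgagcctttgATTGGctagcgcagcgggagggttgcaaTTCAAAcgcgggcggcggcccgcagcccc

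Ccnb1 held CCAAT boxes and no CHR in this window, and the other two held both. Ccnb2 was listed at 143, 151 and 143 FPKM at E17.5 and 5.96, 6.18 and 5.74 FPKM in adults (4.40). Ube2c was listed at 102, 96.5 and 88.8 FPKM against 2.07, 2.43 and 4.54 FPKM (4.64).

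Inhibitors of the cell cycle did not move as a group, with 5 of 14 higher and 4 lower (6 and 6 without adult LG 3). Klf9 was listed at 83.7, 104 and 50.3 FPKM in adults and 8.67 to 9.46 FPKM at E17.5 (-2.92), and Gadd45g differed by -2.47. Cdkn2c (1.45) and the imprinted Cdkn1c (1.48) were higher at E17.5.

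Genes of LG development were mostly higher. Of 20 tested LG development factors 12 were higher and 2 lower (14 and 2 without adult LG 3), with 23 of the 43 listed below the filter. The largest rise of the list was the collagen Col2a1 (6.39), which is counted again below among collagen and cartilage genes. Fgf10 was listed at 90.7, 69.8 and 42.9 FPKM at E17.5 and 1.53, 2.67 and 7.78 FPKM in adults (log2 difference 3.92). The FGF response genes Etv5 (4.52), Spry4 (2.42), Dusp6 (2.23) and Spry2 (1.69) were higher too. Etv5 was listed at 182, 195 and 185 FPKM against 3.84, 6.38 and 14.3 FPKM. Barx2, an epithelial factor of LG budding, rose less (1.27), whereas Pax6 (-1.29) and Bmp4 (-2.19) were lower. On own recovered reads neither Pax6 (-0.40) nor Bmp4 (-1.34) passed.

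Wnt pathway genes were higher in 23 of 33 tested members and lower in 2 (23 and 4 without adult LG 3). The receptors Ror2 (4.61) and Fzd2 (4.56) and the ligands Wnt2b (3.82) and Wnt2 (3.44) rose together with the antagonists Sfrp2 (5.71), Dkk2 (4.73) and Sfrp1 (4.08). Sfrp5, another secreted antagonist, ran opposite at 168, 121 and 41.3 FPKM in adults and 0.338 to 0.655 FPKM at E17.5 (-5.97). Rnf43, which removes Wnt receptors from the surface, was lower on the deposited scale (-0.95) and not on own recovered reads (0.02). Hedgehog genes were higher in 6 of 10 and lower in 2, with the same counts without adult LG 3. Gli2 (3.50) and the coreceptors Gas1 (3.31) and Cdon (2.88) were higher, and Foxf1 (-2.17) and the pathway inhibitor Sufu (-1.35) were lower. BMP and TGF-beta genes were higher in 14 of 27, with Gdf11 (3.82) first, and lower in 1, Bmp4. Without adult LG 3 these counts were 21 and 3. Notch genes were higher in 5 of 11 and lower in none (7 and 1 without adult LG 3), with the ligand Jag2 (1.42) first.

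Matrix and mesenchyme were higher by wide margins. Of 32 tested collagen and collagen assembly genes 27 were higher and 1 lower, and of 26 other matrix genes 19 were higher and none lower. Without adult LG 3 the higher genes numbered 28 and 25. Col1a1 was listed at 2228, 1939 and 1867 FPKM at E17.5 and 40.3, 57.1 and 47.9 FPKM in adults (log2 difference 5.36, SE 0.20, adjusted p = 3.1e-05). Periostin (Postn) was listed at 541, 539 and 514 FPKM against 8.05, 9.61 and 23.2 FPKM (5.33). The hyaluronan synthase Has2 (5.30) and versican (Vcan, 6.31) were higher, and elastin (Eln) was listed at 1.36 to 1.78 FPKM against 0.717 to 2.04 FPKM and did not pass. Mesenchymal transcription factors were higher in 18 of 23 and in 20 without adult LG 3, among them Twist1 (4.21) and Alx4 (4.07), with Lmx1b (-2.78) and Foxf1 (-2.17) lower. On own recovered reads Foxf1 did not pass (-1.49).

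Lists of stromal and neural cell markers were counted next. Fibroblast markers were higher in 10 of 14, also without adult LG 3, but 7 of these 10 are collagen or matrix genes counted above, among them Col1a1, Col3a1 and Postn. Of the others Pdgfra (0.56), Pi16 (1.22) and Dpt (2.33) were higher, while Thy1 (-0.23), Gsn (-0.48), Dpep1 (-0.06) and Fap (0.47) did not pass. The list is thus in large part the matrix result given again. Pericyte markers were higher in 5 of 7 (7 without adult LG 3), and Schwann and glial markers in 7 of 13 with 2 lower (7 and 3), S100b (5.15) and the nerve growth factor receptor Ngfr (4.08) among the higher. All 7 tested neuronal markers were higher, with 15 of the 22 below the filter. Each of the 7 had an adult mean under 0.5 FPKM and entered the test through its E17.5 values. The direction of this count was thus set by the filter. The neurofilament Nefl was listed at 26.05, 25.63 and 14.83 FPKM at E17.5 and at 0 in adults. Cartilage genes were present at E17.5, with Col2a1 at 94.1, 97.9 and 72.7 FPKM against at most 0.109 FPKM (6.39) and Hapln1 at 4.81 to 7.86 FPKM against 0, while Acan and Comp were below the filter. Their summed level was nonetheless highest in adult LG 3 (474 FPKM against 318 to 334 FPKM at E17.5), of which Spp1, a secreted phosphoprotein of bone and milk, made up 423 FPKM. Their part in the matrix differences was not tested.

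Markers of muscle, blood and pigment cells were mostly at low values. Muscle markers were higher in 4 of 9 tested members (3 without adult LG 3), and their summed level was 37.2, 92.9 and 17.3 FPKM in E17.5 LG 1, 2 and 3 against 2.32 to 6.42 FPKM in adults. The 4 higher members had adult means under 0.5 FPKM and entered the test through their E17.5 values. Embryonic myosin Myh3 was listed at 5.79, 9.52 and 7.49 FPKM, while Myog stood at 1.29, 7.98 and 0.167 FPKM and did not pass. The embryonic globin Hbb-y was listed at 46.9, 49.0 and 12.4 FPKM at E17.5 and at 0 in adults. Of 8 tested erythroid markers 6 were higher. The melanocyte gene Dct was listed at 1.93 to 3.99 FPKM against at most 0.232 FPKM, and 2 of 4 tested markers of its list were higher and 1 lower. Lens and retina markers gave 1 higher and 1 lower of 3, and adipocyte markers 2 and 2 of 8.

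Endothelial markers did not move together. Of 15 tested 5 were lower, 2 higher and 8 did not pass, and on own recovered reads 2 were lower and 2 higher. In the fit without adult LG 3, 8 were lower and 6 higher. Plvap, the diaphragm protein of fenestrated capillaries, was listed at 251, 336 and 572 FPKM in adults and 37.9, 38.4 and 27.2 FPKM at E17.5 (log2 difference -3.38). Lyve1, a marker of lymphatic endothelium and some macrophages, was higher, at 22.06, 24.85 and 19.52 FPKM against 0.284, 0.216 and 1.08 FPKM (3.96), and so was the angiopoietin receptor Tek (1.79). Cdh5, which all endothelium expresses, lay at 60.4 to 80.6 FPKM and 26.3 to 78.7 FPKM and did not pass. Its adult values were 26.3, 31.4 and 78.7 FPKM, so that adult LG 3 lay within the E17.5 range.

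**Figure D3:**
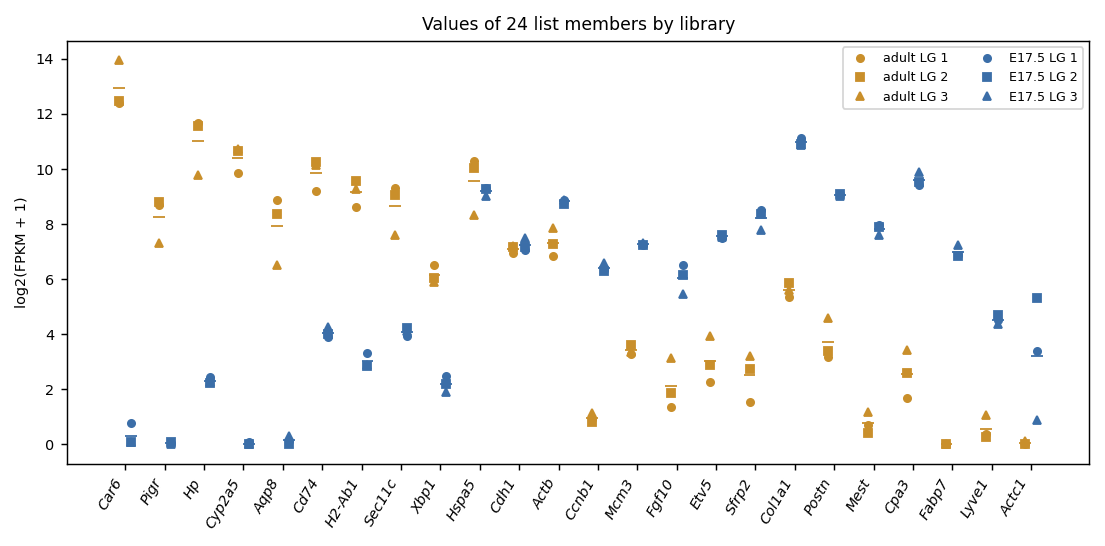
log2(FPKM + 1) of 24 list members in each of the 3 adult (ochre) and 3 E17.5 (blue) LG libraries, with a bar at each group mean and 1 symbol shape for each replicate number. Hspa5 and Cdh1 overlap between groups, and Actc1 spreads from 0.850 to 39.2 FPKM among the E17.5 libraries.

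The counts of ribosomal and respiratory genes depended on the scale. Of 48 ribosomal protein genes 13 were higher and 1 lower on the deposited scale (median 0.37), and 33 were higher on own recovered reads (1.30). In the fit without adult LG 3, 17 were higher and 5 lower. Of 39 respiratory chain genes 1 was higher and 5 lower (-0.18), and on own recovered reads 21 were higher and 1 lower (0.73). Leaving out adult LG 3 moved this list the other way, to 1 higher and 19 lower (-0.37). Rpl32 was listed at 3411, 2989 and 1632 FPKM in adults and 2336 to 2650 FPKM at E17.5, so that adult LG 3 fell below and adult LG 1 and 2 above the E17.5 range. Of 10 tested reference genes 4 were higher and 2 lower, and their median moved in like manner, from 0.07 to 1.03 on own recovered reads. Ppia (1.64) and Pgk1 (2.25) were higher at E17.5 and Gusb (-1.14) was lower, with Gusb not past the threshold on own recovered reads (-0.15). Splicing and chromatin regulators were higher in 15 of 28 tested members and lower in 1 (19 and 1 without adult LG 3), among them the histone chaperone Nasp (3.63) and the nucleolar protein Ncl (2.47). Of the 48 lists, 28 had a median above 0 on the deposited scale and 33 on own recovered reads.

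**Figure D4:**
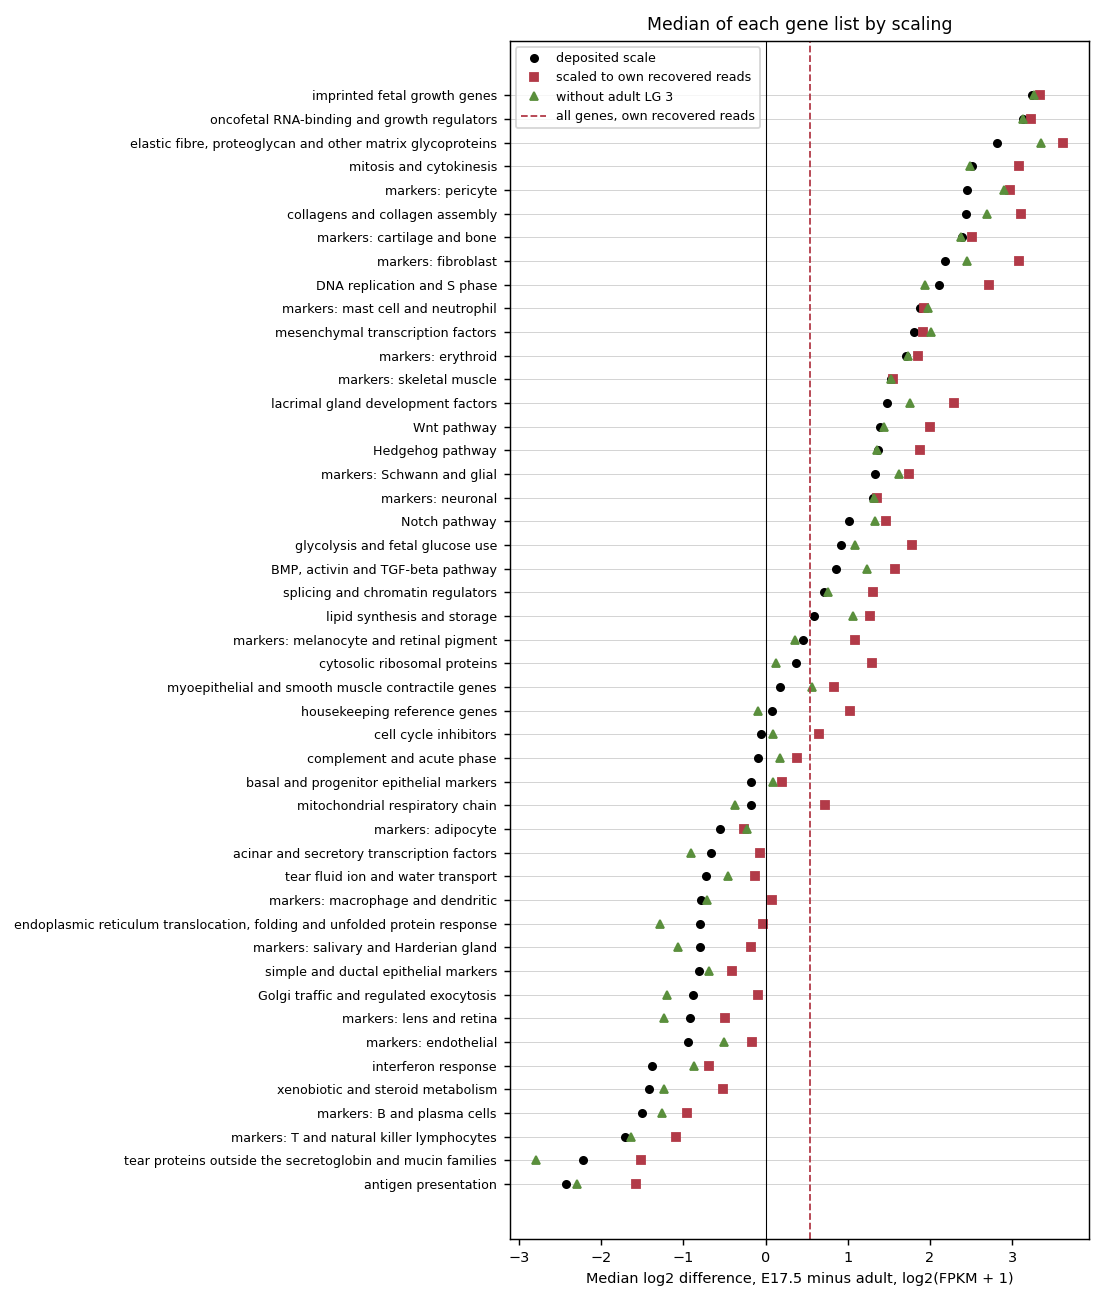
Median log2 difference (E17.5 minus adult, on log2(FPKM + 1)) of each gene list on the deposited scale (black circles), scaled to own recovered reads (red squares) and without adult LG 3 (green triangles). The dashed line marks the median of all genes on own recovered reads, 0.54, and the ER list moves from -0.80 to -0.03.

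Loci without a gene symbol made up part of the calls. Of 3949 assembled loci tested, 749 were higher and 1112 lower at E17.5, against 3883 higher and 2900 lower of 14701 annotated genes. The loci could not be placed, and their functions were not analysed here.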

How the data were processed

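Adult and E17.5 LG libraries, 3 each, were taken from the sample labels. The authors purified poly(A) RNA, made libraries with the NEBNext Ultra kit and deposited a value for every gene in each library, taken here to be FPKM. The submitters' processing notes name CASAVA 1.8, HISAT2 2.0.5, featureCounts 1.5.0-p3 and build NCBIM37, and the authors tested counts with DESeq2. Symbols and positions came from GENCODE M21 (GRCm38), which held 52403 of 52636 Ensembl identifiers. No coordinates of the deposited files were used, and promoters came from RefSeq (GRCm38.p6).

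Values were compared as log2(FPKM + 1) with limma 3.58.1 (lmFit, eBayes with trend, R 4.3.3), Benjamini-Hochberg adjustment over the 18650 genes whose mean reached 0.5 FPKM, and a threshold of 0.05. This scale understates changes of low genes. Differences are E17.5 minus adult. Whole reads were recovered from the FPKM steps for 92.6% to 93.5% of genes of up to 1000 reads, counted as whole within 0.01 read. The members and lists were chosen with earlier results of these data known, and lists were described by counts and medians, with no set test. Named genes were those ranked up to 25 in each direction (adjusted p under 0.05, mean of at least 1 FPKM, groups not overlapping), the list members with the largest differences under the same conditions, and markers near 0. Others named beside them (for example milk, Rpl32, Cdh1 and Tyrobp) were chosen after their values were seen. Some items are not reported here. Python 3.11.15, pandas 2.3.3 and matplotlib 3.10.9 were used.

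The fit was tested on simulated data with genes changed by a known amount. The first simulation recovered few of them. The simulation, and not the fit, was then changed, first to a smaller assumed spread and to better measured genes, which raised recovery, and was last set to the spread measured in each group, which recovered fewer than the easier settings. Recovery thus depended on the assumed spread, and in all of these false calls took more than the nominal share. Weights by group, added after the data were seen, lowered that share without bringing it to the nominal level. The simulations changed far fewer genes than were called in the data, so their share of false calls does not carry over as a number. Calls, above all those near the threshold, are accordingly less certain than their adjusted p states.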

Additional observations from a re-analysis of the deposited data

How the results depend on the processing

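Scaling to own recovered reads changed the balance of calls, with 7248 genes higher and 1772 lower in place of 4632 and 4012, and turned the sign of 4 named genes, none of which then passed: Rnf43 (0.0206), Perp (0.0796), Mbp (0.25) and Ndufa1 (0.0220). A further 26 of 239 named genes lost their call there. Over the libraries left out in turn, genes lower at E17.5 ranged from 2569 to 5529 and genes higher from 3587 to 5745. Each E17.5 library left out took the lower genes to 2589, 2569 and 2657 (replicates 1, 2 and 3), and fewer samples were then tested. The replicate numbers did not pair the libraries, with correlations of deviations for same-numbered libraries of -0.00885, -0.00207 and -0.0207, and the replicate block gave 3998 higher and 3349 lower. Library weights by group, chosen after seeing the data because the adult libraries spread more, gave 4251 higher and 4009 lower, and 5 of 239 named genes lost their call. The lists with a median above 0 numbered 28 to 33 over all settings. The share of the top genes differed by 43.2 percentage points of reads and by 64.9 of summed FPKM, and leaving out 1 library gave 38.2 to 52.7. With limma-voom on the recovered reads, 3761 genes were higher and 3221 lower of 14666 tested, and 2 of 232 named genes lost their call. That fit kept the library sizes behind the deposited values, so it is no check of the scaling. The count tests planned for a file of deposited counts were not run, since none was among the files.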
